A study of Mus musculus with 18 samples.

Results

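The transcription factors described here specify and mark the amacrine and horizontal cells of the retina. They are Ptf1a, Foxn4, Onecut1, Onecut2, Prox1, Lhx1, Tfap2a, Tfap2b, Tfap2c and Nhlh2, 10 of the 18193 genes with a probe set of their own on the Affymetrix mouse genome array. They were chosen by gene symbol, with every probe set that carries the symbol of a member and of no other gene, 21 in all. Where a gene had several, the probe set with the highest mean over the arrays was described first and is called the lead probe set. Total RNA of whole isolated retinas was hybridised to 18 arrays, 3 for each of 6 groups. The groups were P0, P7 and adult mice, each as WT littermates and as Plk3-KO mice, which carry a constitutive deletion in the gene of the polo-like kinase Plk3. Both genotypes came from crosses to C57Bl/6, no group received a treatment, and the design asks how the retinal transcriptome differs without Plk3 over development. The labels do not say whether an array holds 1 animal or a pool, so p-values measure only the spread between these arrays.

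Amacrine and horizontal cells are the interneurons that shape signals between photoreceptors, bipolar cells and ganglion cells, mostly by inhibition. Both arise from progenitors that express the forkhead factor Foxn4 and then the bHLH factor Ptf1a, which together direct cells away from the photoreceptor and ganglion cell fates. Horizontal cells then rely on Onecut1, Onecut2, Prox1 and Lhx1, while the AP-2 factors Tfap2a, Tfap2b and Tfap2c mark postmitotic amacrine cells and, for the first pair, horizontal cells. Nhlh2 is a neuronal bHLH factor. In mice most cells of both types are born before or around birth.

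Upstream sequence is shown for both bHLH factors, Ptf1a and Nhlh2, and for the homeodomain factor Lhx1. They were picked because their windows lie, at least in part, outside the annotated gene. RefSeq windows on GRCm38.p6 were found for 8 of the 10 genes, and those printed lie outside the annotated gene, which cut the Nhlh2 window from 250 to 216 bases. Ptf1a is read from chr2:19445413-19445662 on the plus strand, Lhx1 from chr11:84525535-84525784 on the minus strand and Nhlh2 from chr3:102009895-102010110 on the plus strand. Each is written 5′ to 3′ along its gene and ends just before the annotated start, and capitals mark the E-box CANNTG, the motif that bHLH factors bind, whose other strand reads the same.
Ptf1a: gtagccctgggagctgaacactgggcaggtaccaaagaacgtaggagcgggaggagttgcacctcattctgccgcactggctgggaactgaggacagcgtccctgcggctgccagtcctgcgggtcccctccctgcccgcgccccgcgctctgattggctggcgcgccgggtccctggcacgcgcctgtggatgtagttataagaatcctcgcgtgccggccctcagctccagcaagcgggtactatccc
Lhx1: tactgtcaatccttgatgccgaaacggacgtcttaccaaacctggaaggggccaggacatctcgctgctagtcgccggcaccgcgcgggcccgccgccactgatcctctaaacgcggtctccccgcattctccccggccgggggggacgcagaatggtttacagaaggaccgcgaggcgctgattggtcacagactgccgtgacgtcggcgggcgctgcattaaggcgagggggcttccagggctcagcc
Nhlh2: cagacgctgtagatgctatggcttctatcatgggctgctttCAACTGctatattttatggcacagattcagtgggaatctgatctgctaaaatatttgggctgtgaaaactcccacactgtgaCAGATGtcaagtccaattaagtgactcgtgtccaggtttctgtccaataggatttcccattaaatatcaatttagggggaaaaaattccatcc
The Nhlh2 window holds 2 E-boxes, and the windows of Ptf1a and Lhx1 hold 0. Among the windows of 250 bases not printed, Onecut1 holds 2, Tfap2b 1 and Foxn4 0. Prox1 holds 2 and 0 in separate windows, and Tfap2a holds 0 in each of its windows. Of the 32851 promoters in the table, 66.22% hold an E-box in their 250 upstream bases and 61.57% in the stretch that corresponds to the Nhlh2 window. A match is a description of these letters and not a binding site.

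Values are MAS5 signals after log2 transformation by the authors, so that a difference of 1 is a change of 2-fold. Where a group mean lay at or below 7, the minimum of the study's methods, the size of a difference is not firm. Changes with age were tested with limma on all 18 arrays, with Benjamini-Hochberg adjustment over all probe sets tested in a comparison and a threshold of 0.05 on the adjusted p for a call. A probe set was tested where its mean lay above 7 in at least 1 of the groups compared, and 20 of the 21 member probe sets did so in some group. The exception was Lhx1 on 1421951_at, with group means from 5.73 to 6.83. In whole retinas, fewer cells of a type and less RNA per cell cannot be told apart. Rods make up most of the adult tissue and their genes rose steeply over these ages, so a level is relative to an RNA mixture that changes with age.

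Across all genes, arrays of the same age correlated at 0.947 to 0.960 at P0, 0.939 to 0.967 at P7 and 0.874 to 0.948 in the adult, and median log2 values ran from 6.3 to 7.2. Array 3 of adult WT, array 3 of adult Plk3-KO, array 3 of P7 WT and array 2 of P7 Plk3-KO stood apart from their groups in their medians. These were 7.0, 7.2, 6.4 and 6.4, against 6.4, 6.3 to 6.5, 6.9 and 6.8 to 6.9 on the other arrays of each group. By correlation adult WT array 3 did not stand apart, at 0.886 to 0.948 with arrays of its age. The set was chosen with the values known, and member calls with age that change without these 4 arrays are named beside the results. Retinal identity was clear in rod markers at P7 and in the adult, with list means of 12.6 to 13.5 and 14.45 to 15.5. At P0 the rod list means were 8.26 to 9.19. Lens RNA was present in very unequal amounts. List means over lens genes ran from 4.18 to 13.6 among the P0 arrays, 4.28 to 6.01 at P7 and 5.85 to 11.6 in the adult. At P0 the lens mean lay above the rod mean on some arrays and below it on others. Plk3 itself was measured by 1434496_at, a probe set of the 3′ end that does not check the deletion. It read 6.4 to 7.3 in WT and 7.5 to 8.2 in Plk3-KO retinas at P0, 6 to 6.3 and 6.1 to 8.1 at P7, and 3.9 to 5.9 and 7.4 to 8 in the adult.

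**Figure D1:**
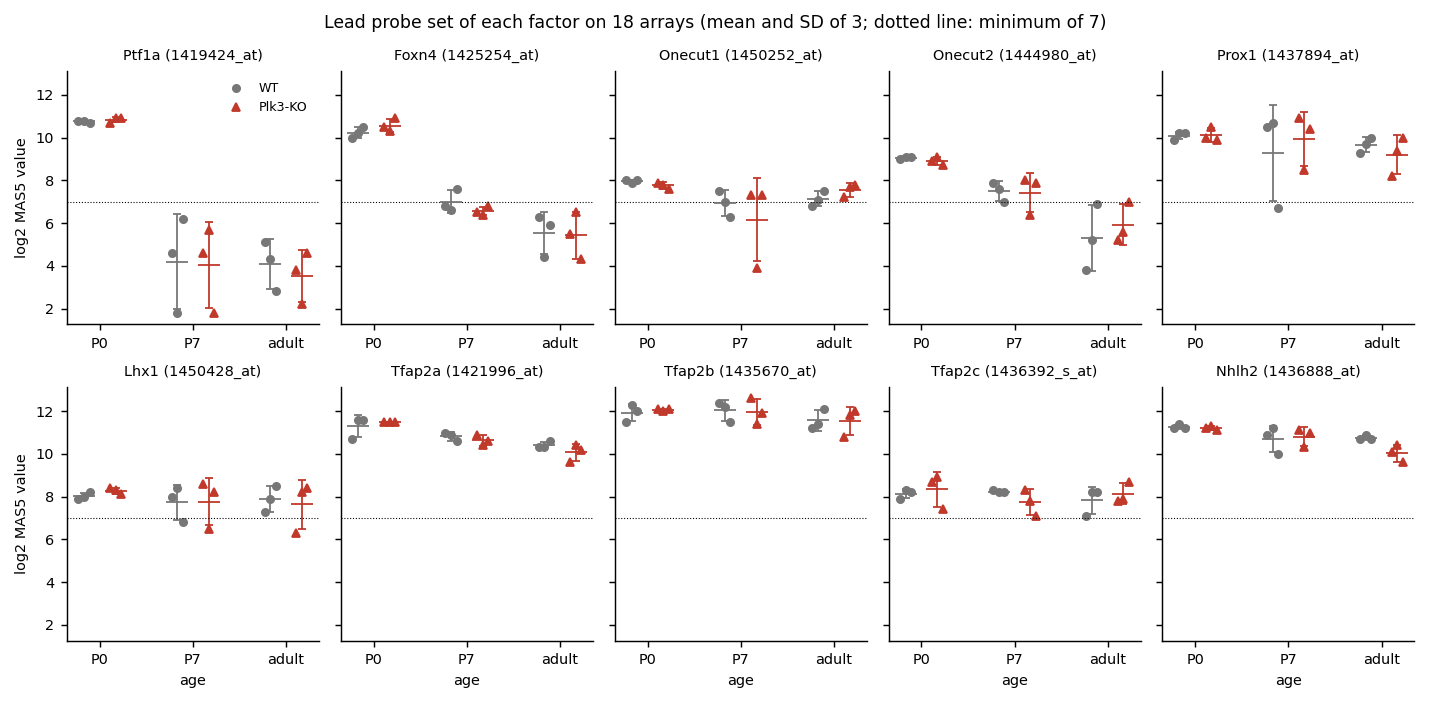
Log2 MAS5 values of the lead probe set of each of the 10 factors on 18 arrays by age, with WT as grey circles and Plk3-KO as red triangles; dashes and bars are the mean and SD of 3 arrays and the dotted line is the minimum of 7. Ptf1a lies between 10.7 and 10.9 on all P0 arrays and at or below 6.2 on every later array, while Tfap2b lies at or above 10.8 throughout.

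Ptf1a and Foxn4, which act in progenitors and newborn cells, were the factors with the steepest fall between birth and P7. Ptf1a (1419424_at, chromosome 2) read 10.8, 10.8 and 10.7 on the P0 WT arrays and 10.7, 10.9 and 10.9 on the P0 Plk3-KO arrays. At P7 it read 4.6, 1.8 and 6.2 in WT and 4.6, 5.7 and 1.8 in Plk3-KO retinas. Every P0 array lay far above every P7 array, in either genotype. In the adult the values were 5.1, 4.3 and 2.8 in WT and 3.8, 2.2 and 4.6 in Plk3-KO retinas, and they overlapped those of P7. The P7 minus P0 difference was −6.57 in WT (SE 1.04, limma adjusted p = 0.000288) and −6.80 in Plk3-KO retinas (SE 1.04, limma adjusted p = 0.000191). Since the P7 and adult means, 3.53 to 4.20, all lay far below the minimum, Ptf1a was not tested between those ages.

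Foxn4 (1425254_at, chromosome 5) read 10, 10.2 and 10.5 in P0 WT and 10.5, 10.3 and 10.9 in P0 Plk3-KO retinas. By P7 it had fallen to 6.8, 6.6 and 7.6 in WT and to 6.5, 6.4 and 6.8 in Plk3-KO retinas. Adult values were 6.3, 4.4 and 5.9 in WT and 5.5, 6.5 and 4.3 in Plk3-KO retinas. The P0 arrays stood clear of all later arrays, whereas the adult Plk3-KO arrays reached into the P7 range. The P7 minus P0 difference was −3.23 in WT (SE 0.514, limma adjusted p = 0.000298) and −4.0 in Plk3-KO retinas (SE 0.514, limma adjusted p = 3.58e-05). Both factors were also called as lower in the adult than at P0, Foxn4 by −4.70 in WT and −5.13 in Plk3-KO retinas and Ptf1a by −6.70 and −7.30. No alternative setting ended any of these calls for P7 against P0 or adult against P0.

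Among the horizontal cell factors, Onecut2 declined from P0 to the adult, and its calls within single steps depended on single arrays and on the processing. The lead probe set of this cut-homeodomain factor, 1444980_at, read 9.0, 9.1 and 9.1 in P0 WT and 8.9, 9.1 and 8.7 in P0 Plk3-KO retinas. On the P7 arrays it read 7.9, 7.6 and 7.0 in WT and 8.0, 6.4 and 7.9 in Plk3-KO retinas. In the adult it read 3.8, 5.2 and 6.9 in WT and 5.2, 5.6 and 7.0 in Plk3-KO retinas. The P0 arrays lay above all others, and the highest adult values came from array 3 of each genotype, the adult arrays with the highest medians over all probe sets. From P0 to the adult the lead probe set fell by 3.77 in WT (SE 0.638, limma adjusted p = 0.000186) and by 2.97 in Plk3-KO retinas (SE 0.638, limma adjusted p = 0.00134). The other probe sets, 1440005_at and 1460044_at, fell by 3.37 and 3.07 in WT and by 3.80 and 2.93 in Plk3-KO retinas. All 3 probe sets of Onecut2 were therefore called from P0 to the adult in both genotypes, though every adult mean lay below the minimum. From P0 to P7 the lead probe set differed by −1.57 in WT (limma adjusted p = 0.0964) and −1.47 in Plk3-KO retinas (limma adjusted p = 0.120), neither of them called. Under quantile normalization both were called (−1.43 and −1.31). Both were also called when only the arrays compared were fitted (limma adjusted p = 0.00667 and 0.0374). From P7 to the adult in WT, 1444980_at fell by 2.20 (SE 0.638, limma adjusted p = 0.0241), while 1440005_at and 1460044_at differed by −2.07 and −1.73 and were not called. The call was lost without adult WT array 1 (−1.45), adult WT array 2 (−2.15), P7 WT array 1 (−2.0) or P7 WT array 2 (−2.15), and without adult WT array 3 both of the other probe sets were called (−2.63 and −2.08). It was also lost when only the arrays compared were fitted (limma adjusted p = 0.127). The other probe sets were called under quantile normalization (−2.04 and −1.70) and with each array shifted to the same median (−1.93 and −1.60). In Plk3-KO retinas 1444980_at differed by −1.5 over the same step, which was called without adult Plk3-KO array 3 (−2.03) and under quantile normalization (−1.58). Without the 4 arrays that stand apart, 1444980_at was called from P0 to P7 in WT (−1.32) and from P7 to the adult in Plk3-KO retinas (−2.55), 1440005_at (−2.80) and 1460044_at (−2.25) were called from P7 to the adult in WT, and the P0 to P7 call of 1460044_at in Plk3-KO retinas was lost (−1.43). From P0 to P7 in Plk3-KO retinas, 1460044_at fell by 1.77 (SE 0.603, limma adjusted p = 0.0471), a call that was lost when any 1 of 5 arrays was left out, with values from −1.83 to −1.43. The same call was lost without the filter on low values.

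Onecut1, the paralogue on chromosome 9, was called with all arrays on one of its probe sets and not on the other. The lead probe set 1450252_at read 8.0, 7.9 and 8.0 in P0 WT and 7.9, 7.8 and 7.6 in P0 Plk3-KO retinas. The P7 values were 7.5, 7.0 and 6.3 in WT and 7.3, 3.9 and 7.3 in Plk3-KO retinas. Adult values were 6.8, 7.1 and 7.5 in WT and 7.2, 7.7 and 7.8 in Plk3-KO retinas. Apart from the 3.9 of P7 Plk3-KO array 2, all values lay between 6.3 and 8.0, and no change with age was called in the fit to all arrays. In WT the P0 to adult difference was −0.83 (limma adjusted p = 0.294), which was called when only the arrays compared were fitted (limma adjusted p = 0.0450) and without the 4 arrays that stand apart (−1.02, limma adjusted p = 0.00317). Without those 4 arrays the WT difference from P0 to P7 was also called (−0.72). Without P7 Plk3-KO array 1 or 3, which leaves that low value in a mean of 2, a fall from P0 to P7 of 2.17 was called in each case. On 1421447_at, Onecut1 read 7.8, 7.8 and 7.7 in P0 WT and 7.2, 8.1 and 6.9 in P0 Plk3-KO retinas, but 2.4, 6.1 and 6.4 in adult WT and 2.6, 5.2 and 2.8 in adult Plk3-KO retinas. The P0 and adult arrays did not overlap in either genotype. From P0 to the adult this probe set fell by 2.80 in WT (SE 0.979, limma adjusted p = 0.0275) and by 3.87 in Plk3-KO retinas (SE 0.979, limma adjusted p = 0.00445). The WT call was lost without adult WT array 1 (−1.52) or without any 1 of the P0 WT arrays (−2.83 to −2.78). It was also lost when only the arrays compared were fitted (limma adjusted p = 0.0523).

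Prox1 and Lhx1, homeodomain factors that horizontal cells keep into adulthood, showed no called change with age on any probe set tested with all arrays. On its lead probe set 1437894_at, Prox1 (chromosome 1) read 9.9, 10.2 and 10.2 in P0 WT and 10, 10.5 and 9.9 in P0 Plk3-KO retinas. By P7 it read 10.5, 10.7 and 6.7 in WT and 10.9, 8.5 and 10.4 in Plk3-KO retinas. On the adult arrays it read 9.3, 9.7 and 10 in WT and 8.2, 9.4 and 10 in Plk3-KO retinas. At P7 1 array of each genotype lay well below the rest, WT array 3 and Plk3-KO array 2, and they widened the WT SD to 2.25. The adult minus P0 difference was −0.43 in WT (SE 0.812, limma adjusted p = 0.672) and −0.93 in Plk3-KO retinas (SE 0.812, limma adjusted p = 0.359). The direction of the P7 to adult step of Prox1 in WT depended on those arrays, at 0.37 with all arrays and −1.10 (called) without the 4 arrays that stand apart. Without those 4 arrays Prox1 was also called as lower in Plk3-KO retinas from P7 to the adult (−1.85, and −1.95 on 1421336_at) and from P0 to the adult (−1.33). Prox1 is also expressed in the lens and in lymphatic vessels. At P0 the lens list mean was 8.90, 4.18 and 13.6 on the 3 WT arrays. On the same arrays the lead probe set of Prox1 read 9.9, 10.2 and 10.2. There 1421336_at read 6.5, 7.3 and 8.5, and 1457432_at read 7.2, 7.6 and 7.9. The list of lymphatic and blood endothelium genes had means from 7.47 to 9.23 over all P0 and P7 arrays. The part of either tissue, or of any single retinal cell type, in the Prox1 values was not tested.

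Lhx1 (1450428_at, chromosome 11) read 7.9, 8.0 and 8.2 in P0 WT and 8.4, 8.3 and 8.1 in P0 Plk3-KO retinas. At P7 it read 8.0, 8.4 and 6.8 in WT and 8.6, 6.5 and 8.2 in Plk3-KO retinas. In the adult it read 7.3, 7.9 and 8.5 in WT and 6.3, 8.2 and 8.4 in Plk3-KO retinas. All ages overlapped in both genotypes. The adult minus P0 difference was −0.13 in WT (SE 0.582, limma adjusted p = 0.862) and −0.63 in Plk3-KO retinas (SE 0.582, limma adjusted p = 0.386), and the latter became −1.02 and was called without the 4 arrays that stand apart.

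The AP-2 factors of amacrine cells kept signals above the minimum into the adult on their lead probe sets, and among them Tfap2a declined. On 1421996_at, Tfap2a (chromosome 13) read 10.7, 11.6 and 11.6 in P0 WT and 11.5 on all 3 P0 Plk3-KO arrays. The P7 arrays gave 11, 10.9 and 10.6 in WT and 10.9, 10.4 and 10.6 in Plk3-KO retinas. The adult arrays gave 10.3, 10.3 and 10.6 in WT and 9.6, 10.4 and 10.2 in Plk3-KO retinas. All P0 arrays lay above all adult arrays, by a margin of 0.1 between P0 WT array 1 and the highest adult array. From P0 to the adult Tfap2a fell by 0.90 in WT (SE 0.246, limma adjusted p = 0.00723) and by 1.43 in Plk3-KO retinas (SE 0.246, limma adjusted p = 0.000196). Of its other probe sets, 1426048_s_at fell over the same span by 1.23 in WT and 1.90 in Plk3-KO retinas, and 1421995_at fell by 2.33 in Plk3-KO retinas, while its WT difference of −1.20 was not called. When each array was shifted to the same median, the WT differences of 1421996_at and 1426048_s_at shrank to −0.53 and −0.87 and were no longer called, and the WT call on 1426048_s_at was also lost without P0 WT array 2 (−1.02). Under quantile normalization neither WT call was lost. In the Plk3-KO retinas, 1421996_at fell already from P0 to P7, by 0.87 (SE 0.246, limma adjusted p = 0.0187), and 1426048_s_at fell by 1.40 (SE 0.373, limma adjusted p = 0.0130). The first of these calls was lost without any 1 of the 3 P0 Plk3-KO arrays (−0.87 each), P7 Plk3-KO array 2 (−0.75) or P7 Plk3-KO array 3 (−0.85), the second without P7 Plk3-KO array 2 (−1.15), and both under the same-median shift (−0.63 and −1.17). In WT the corresponding differences were −0.47 and −1.07 and not called, but both were called without P0 WT array 1 (−0.77 and −1.35), and that on 1426048_s_at also without P7 WT array 2 (−1.42) and under quantile normalization (−1.02). The part of lens or surface epithelium RNA in the Tfap2a values was not tested.

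Tfap2b (1435670_at, chromosome 1) read 11.5, 12.3 and 12 in P0 WT and 12.1, 12 and 12.1 in P0 Plk3-KO retinas. At P7 it read 12.4, 12.2 and 11.5 in WT and 12.6, 11.4 and 11.9 in Plk3-KO retinas. Adult values were 11.2, 11.4 and 12.1 in WT and 10.8, 11.8 and 12 in Plk3-KO retinas. The ages overlapped in both genotypes and no change was called. The adult minus P0 difference was −0.37 in WT (SE 0.358) and −0.53 in Plk3-KO retinas (SE 0.358), and on 1423340_at it was −0.70 and −1.07, with limma adjusted p between 0.118 and 0.406 over these 4 comparisons. Without the 4 arrays that stand apart, Tfap2b was called from P0 to the adult in Plk3-KO retinas on both probe sets (−0.77 and −1.23) and in WT on 1423340_at (−0.88), and from P7 to the adult on both probe sets in both genotypes (−1.30 to −0.95).

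Tfap2c (1436392_s_at, chromosome 2) read 7.9, 8.3 and 8.2 in P0 WT and 8.7, 8.9 and 7.4 in P0 Plk3-KO retinas. In the adult it read 7.1, 8.2 and 8.2 in WT and 7.8, 7.9 and 8.7 in Plk3-KO retinas, overlapping P0, and the lead probe set was called in no comparison. On 1418147_at Tfap2c fell from P0 to the adult by 1.10 in Plk3-KO retinas (SE 0.284, limma adjusted p = 0.00506), from a mean of 8.23 to 7.13. On 1448977_at it fell by 2.07 (SE 0.628, limma adjusted p = 0.0136), to an adult mean of 5.87, a call that was lost without adult Plk3-KO array 3 (−1.48). In WT the same probe sets differed by −0.57 and −0.67 and were not called, but the first was called without the 4 arrays that stand apart (−0.68, limma adjusted p = 0.0327) and with arrayWeights (−0.71, limma adjusted p = 0.0100). Without the 4 arrays, 1448977_at was called from P7 to the adult in Plk3-KO retinas (−1.35). From P0 to P7 in Plk3-KO retinas, 1418147_at fell by 0.87 (SE 0.284, limma adjusted p = 0.0393), which was lost without P7 Plk3-KO array 2 (−0.68) or 3 (−0.83) or P0 Plk3-KO array 1 (−0.88) or 2 (−0.68), without the 4 arrays that stand apart (−0.68), and under the same-median shift (−0.63). The call was also lost under quantile normalization (−0.69), without the filter on low values, and when only the arrays compared were fitted. The WT difference of 1418147_at, −0.73, was called without P7 WT array 2 (−0.93) and with arrayWeights (−0.71).

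Nhlh2 (1436888_at, chromosome 3) read 11.2, 11.4 and 11.2 in P0 WT and 11.2, 11.3 and 11.1 in P0 Plk3-KO retinas. The P7 values were 10.9, 11.2 and 10 in WT and 11.1, 10.3 and 11 in Plk3-KO retinas. The adult arrays gave 10.7, 10.9 and 10.7 in WT and 10.1, 10.4 and 9.6 in Plk3-KO retinas. In each genotype the adult arrays lay below the P0 arrays. The adult minus P0 difference was −1.17 in Plk3-KO retinas (SE 0.277, limma adjusted p = 0.00286) and −0.50 in WT (SE 0.277, limma adjusted p = 0.145), so that it was called as lower in Plk3-KO retinas and not called in WT. Without the 4 arrays that stand apart the WT difference was −0.47 and was called. It was also called when only the arrays compared were fitted (limma adjusted p = 0.0311). In Plk3-KO retinas the P7 to adult difference of −0.77 was not called, but it was without adult Plk3-KO array 2 (−0.95), P7 Plk3-KO array 2 (−1.02) or the 4 arrays that stand apart (−0.80). Under quantile normalization it was called as well (−0.75).

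**Figure D2:**
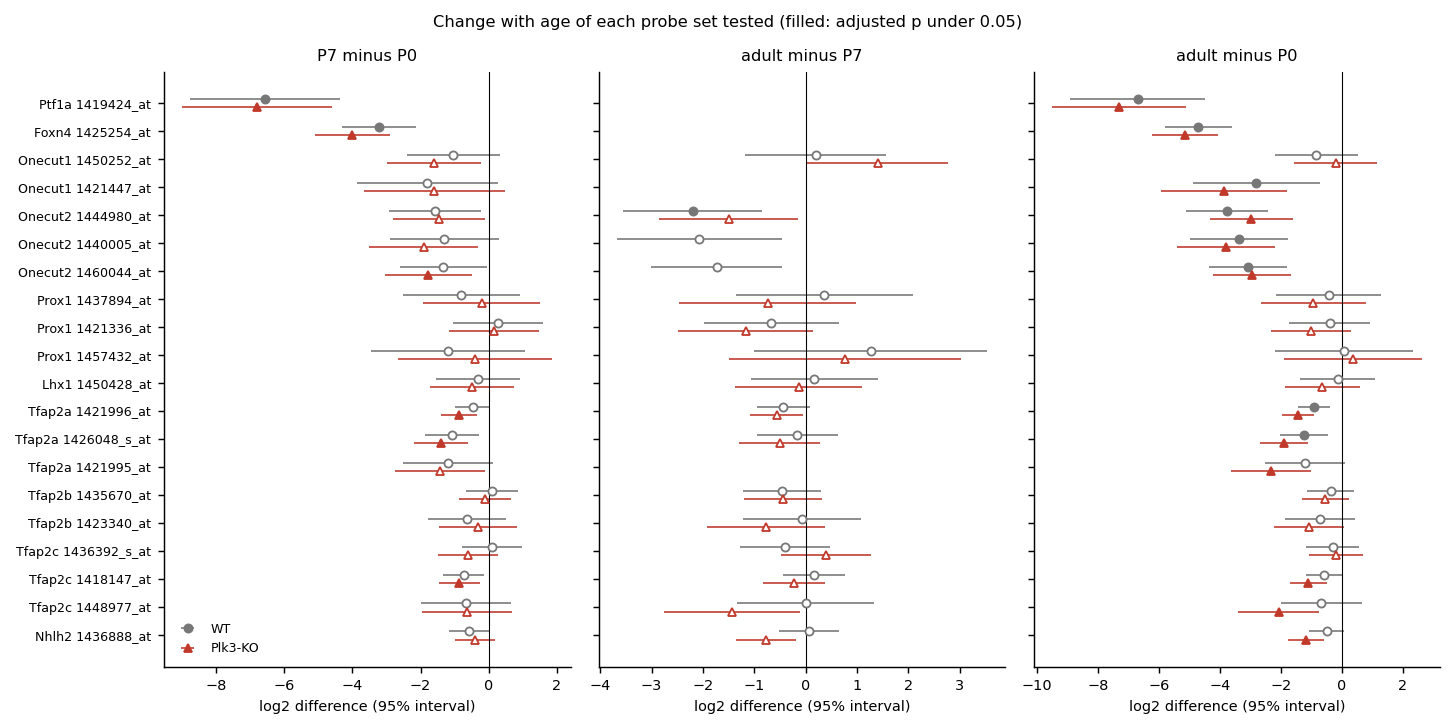
Log2 change with age of each member probe set tested, from P0 to P7, P7 to adult and P0 to adult, in WT (grey circles) and Plk3-KO (red triangles), with 95% intervals from limma; filled symbols have an adjusted p under 0.05. Every filled symbol lies below 0, with Ptf1a and Foxn4 farthest out from P0 to the adult, and Prox1, Lhx1 and Tfap2b have open symbols throughout with all arrays.

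Counted over the members, 2 of 20 probe sets tested were lower at P7 than at P0 in WT and 6 of 20 in Plk3-KO retinas, and 0 were higher. Over all probe sets tested, 9.6% were lower and 10.8% higher in WT, and 10.5% lower and 10.6% higher in Plk3-KO retinas. From P7 to the adult, 1 of 16 was lower in WT and 0 of 14 in Plk3-KO retinas, and again 0 were higher, beside a background of 9.75% lower and 9.95% higher in WT and 10% lower and 9.16% higher in Plk3-KO retinas. Of the probe sets tested, 6 in WT and 8 in Plk3-KO retinas passed the minimum only through P0 in the first step, and 3 in each genotype only through P7 in the second, so that these could be called only as lower. The shares of lower members in these steps lay near or below the background, apart from the P0 to P7 step in Plk3-KO retinas, where calls of Onecut2, Tfap2a and Tfap2c rested on single arrays as given above. From P0 to the adult, a comparison added after the values were seen, 8 of 20 probe sets from 5 genes were lower in WT and 12 of 20 from 7 genes in Plk3-KO retinas, beside 26.9% lower and 21.3% higher over all probe sets in WT and 25.2% lower and 20.1% higher in Plk3-KO retinas. No member was higher. All 8 probe sets called in WT were among the 12 called in Plk3-KO retinas, and the genotypes share no arrays. Of the probe sets tested, 7 in WT and 9 in Plk3-KO retinas passed the minimum only through P0, so that they could be called only as lower, and probe sets of 1 gene are not independent. The median difference over the members was −0.77 in WT and −1.30 in Plk3-KO retinas, beside −0.20 over all probe sets in each genotype. The actin 3′ minus 5′ control difference was 1.6 to 2.7 on the adult arrays, with the 2.7 on Plk3-KO array 3, and 1.0 to 1.3 on the P0 arrays. Its part in the falls from P0 to the adult was not tested.

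The P0 to adult change of the members was not called as different between genotypes. The test of the difference itself gave an adjusted p of 1.0 for every member probe set in limma, with Plk3-KO minus WT differences of the change from −1.40 to 0.80, and 0% of all probe sets were called. The same test called 0% for the P0 to P7 change and 0% for the P7 to adult change. Calls of Nhlh2 and Tfap2c in Plk3-KO retinas and not in WT are thus not shown to differ between the genotypes.

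Between Plk3-KO and WT retinas of the same age, 0 member probe sets were called, and 0% of all probe sets were called at P0, P7, in the adult or over the mean of the ages. In limma, unadjusted p-values under 0.05 were reached by 85 probe sets at P0, 123 at P7 and 1008 in the adult, of which the only member was Nhlh2 in the adult. The methods' t-test reached that unadjusted level for 503 probe sets at P0, 250 at P7 and 660 in the adult, among them Nhlh2 and Tfap2c on 1418147_at in the adult, and for 0 after adjustment. No alternative setting called any member between genotypes. At P0, 20 member probe sets were tested, and their Plk3-KO minus WT differences ran from −0.37 for Onecut1 on 1421447_at to 0.33 for Foxn4. The groups overlapped for every one of them, beside a background of 1.74% of probe sets higher and 1.75% lower in Plk3-KO retinas without overlap. For the amacrine cell factors the 95% intervals at P0 were −0.32 to 0.72 for Tfap2a, −0.62 to 0.89 for Tfap2b and −0.65 to 0.52 for Nhlh2, and for Foxn4 the interval was −0.76 to 1.42.

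At P7, 14 member probe sets were tested, since Ptf1a, Foxn4, Onecut1 and single probe sets of Prox1, Lhx1 and Tfap2a lay at or below the minimum in both genotypes. The differences ran from −0.53 for Onecut2 on 1440005_at to 0.63 for Prox1, where a mean of 9.30 in WT rested on P7 WT array 3. None was free of overlap, beside 0.79% higher and 1.13% lower over all probe sets. The 95% interval was −0.72 to 0.32 for Tfap2a, −0.82 to 0.69 for Tfap2b and −0.49 to 0.69 for Nhlh2.

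In the adult, 13 member probe sets were tested. Nhlh2 was lower on each Plk3-KO array than on any WT array, by 0.73 on average (95% interval −1.32 to −0.15, limma adjusted p = 0.977). Of Tfap2c, 1418147_at read 7.1, 7.2 and 7.1 in Plk3-KO against 7.5, 7.4 and 7.8 in WT retinas, and 1448977_at read 6.0, 6.9 and 4.7 against 7.3, 7.0 and 7.2, both again without overlap. The Tfap2c lead probe set went the other way, by 0.30 (95% interval −0.58 to 1.18). These 3 of 13 stood beside 3.37% of all probe sets lower without overlap and 2.11% higher, and an exact two-sided permutation test on 3 against 3 arrays gave p = 0.1, the smallest it can give, for each. The remaining members overlapped, with differences from −0.47 for Prox1 to 0.43 for Onecut1. On the adult Plk3-KO arrays the mean over amacrine cell transmitter and marker genes was 10.02 to 10.15, against 10.27 to 10.55 on the WT arrays, and the mean over rod markers was 14.85 to 15.51 against 14.45 to 15.19. The lowest adult values of Nhlh2 (9.6) and of Tfap2c on 1448977_at (4.7) came from Plk3-KO array 3. On that array the actin 3′ minus 5′ control difference was 2.7, against 1.6 to 1.8 on the other adult arrays. Its Gapdh 3′ minus 5′ difference was 0.9, against −0.2 to 0. The part of these mixtures or of RNA quality in the Nhlh2 and Tfap2c values was not tested. Averaged over the ages, the Plk3-KO minus WT difference of the lead probe sets ran from −0.23 for Nhlh2 to 0.13 for Onecut2. Exact permutation within ages over 8000 relabellings, two-sided, gave p from 0.244 for Nhlh2 to 1.0, and over all 21 probe sets the smallest p was that of Nhlh2.

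**Figure D3:**
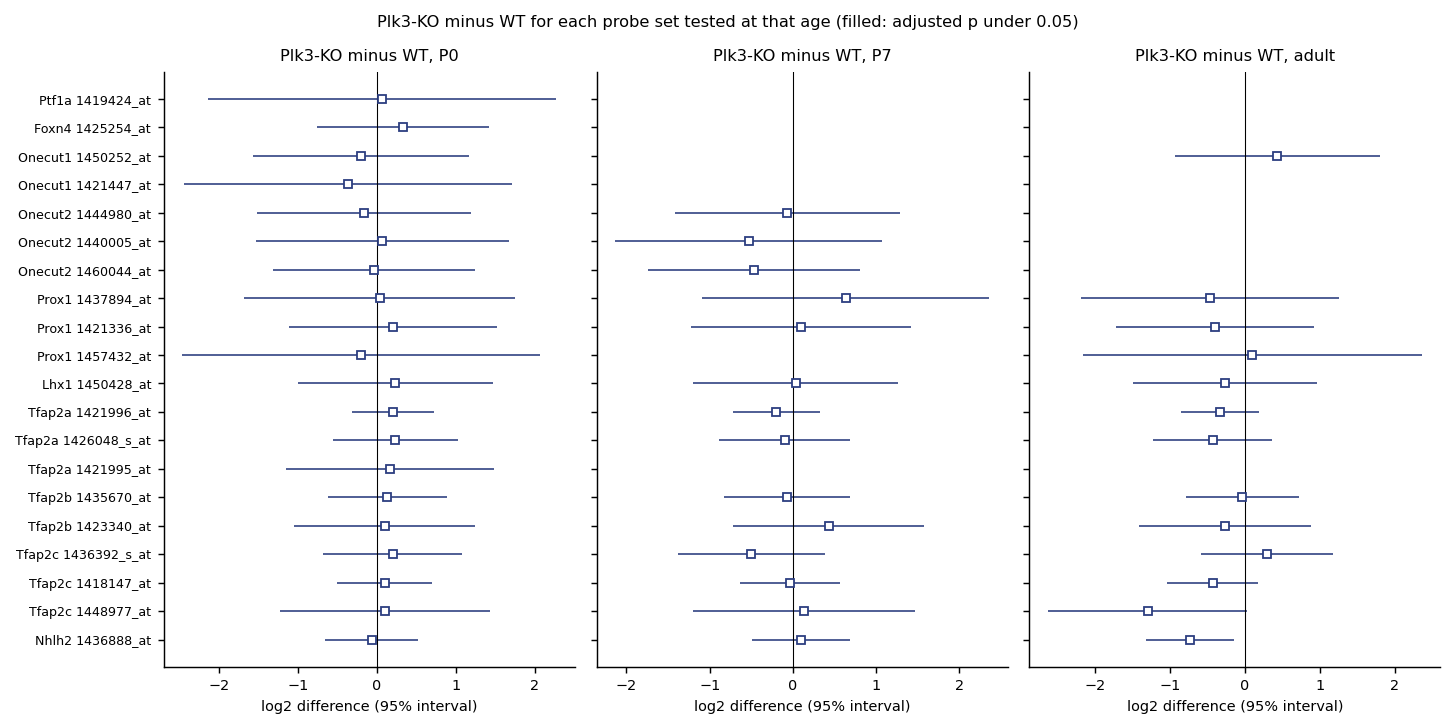
Plk3-KO minus WT log2 difference of each member probe set tested at P0, P7 and in the adult, with 95% intervals from limma; a filled symbol would mark an adjusted p under 0.05, and none is filled. All intervals include 0 except that of Nhlh2 in the adult, −1.32 to −0.15.

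Probe sets of the same gene were set against each other by their change, since the levels of different probes cannot be compared. For each of 11 pairs of a lead and a further probe set, the difference between them was taken on every array. It did not depend on genotype in any pair past the threshold (exact permutation within ages, two-sided, smallest p = 0.2735, 0.955 adjusted over the 11 pairs). With age, the probe sets parted most in Onecut1 and Prox1. From P7 to the adult, 1421447_at of Onecut1 moved by −2.43 relative to the lead probe set (exact permutation within genotypes, two-sided, p = 0.03, 0.165 adjusted over the pairs). Over the same step, 1457432_at of Prox1 moved by 1.20 relative to its lead (exact permutation, p = 0.01, 0.110 adjusted over the pairs). From P0 to P7, 1426048_s_at and 1421995_at of Tfap2a moved by −0.57 and −0.65 relative to the lead (exact permutation, p = 0.02 and p = 0.05, 0.206 adjusted over the pairs for each). No pair passed after adjustment, and the smallest p that these 400 relabellings allow is 0.005. Averaged over the genotypes, the probe sets of Onecut2 made relative moves of at most 0.40 in size in either step, the smallest such limit of any gene. On single arrays, however, the difference of 1440005_at from the lead ranged from −2.3 to 1.1.

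**Figure D4:**
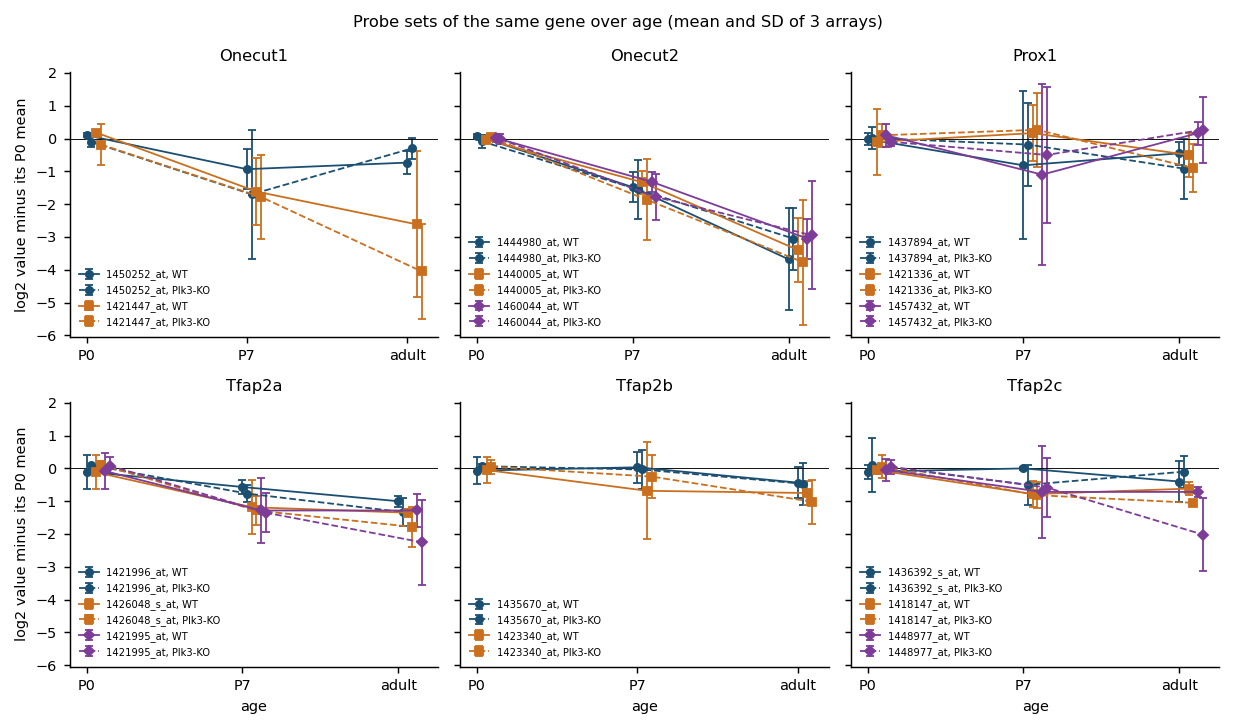
Group means of every probe set of Onecut1, Onecut2, Prox1, Tfap2a, Tfap2b and Tfap2c as log2 value minus the probe set's own mean over the P0 arrays, by age, with solid lines for WT and dashed lines for Plk3-KO; bars are SD of 3 arrays. Onecut1 shows the widest gap between probe sets, where 1421447_at falls further in the adult than 1450252_at. The change of 1450252_at is not called with all arrays.

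Single arrays carried much of the spread of these factors. P7 Plk3-KO array 2 was the lowest of its group for 19 of the 21 member probe sets and P7 WT array 3 for 18, with median deviations from the group mean of −0.73 and −0.70. On the same arrays the list means over rod markers were 13.5 and 13.3 against 12.6 to 13.05 on the other P7 arrays, those over bipolar cell markers 9.07 and 9.14 against 9.72 to 9.84, and those over horizontal cell markers 9.53 and 9.65 against 10.2 to 10.45. The horizontal list includes the member Lhx1, so its mean is not separate from the member values. Lhx1 read 6.5 and 6.8 on these arrays, against 8.0 to 8.6 on the other P7 arrays. The actin 3′ minus 5′ control difference was 1.6 on both arrays and 0.8 to 1.1 on the others, and their median over all probe sets was 6.4 against 6.8 to 6.9. The part of cell mixture or RNA quality in the low values was not tested. Without both arrays, 8 results of single member probe sets changed their call. This omission was chosen with the values known. Taking out low P7 values raises the P7 means of these members, so the changed calls are no independent test. In Plk3-KO retinas, Prox1 on 1437894_at (−1.45) and 1421336_at (−1.82), Tfap2b on 1423340_at (−1.13), Tfap2c on 1448977_at (−1.93) and Nhlh2 (−1.02) were called as lower in the adult than at P7, and the P0 to P7 calls of Onecut2 on 1460044_at (−1.43), Tfap2a on 1421996_at (−0.75) and Tfap2c on 1418147_at (−0.68) were lost. Adult Plk3-KO array 1 and P0 WT array 1 were each the lowest of their group for 14 member probe sets.

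**Figure D5:**
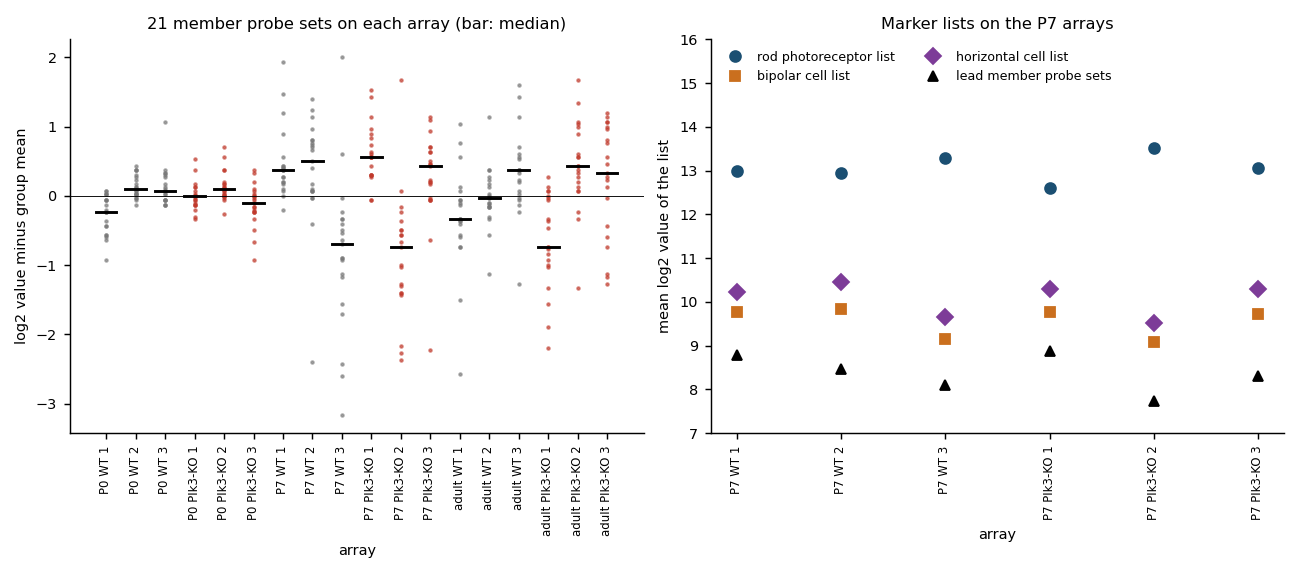
On the left, log2 value minus group mean of the 21 member probe sets on each of 18 arrays (WT grey, Plk3-KO red), with the median as a black bar; on the right, the mean log2 value of 3 marker lists and of the lead member probe sets on the 6 P7 arrays. P7 WT array 3 and P7 Plk3-KO array 2 have medians of −0.70 and −0.73, with higher rod and lower bipolar and horizontal list means than the other P7 arrays. The horizontal list includes the member Lhx1.

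Other genes of the same cells gave the setting of these changes. Over all probe sets tested from P0 to the adult, 21.3% were higher and 26.9% lower in WT. In Plk3-KO retinas 20.1% were higher and 25.2% lower. Of 23 related factors, 20 were on the array. From P0 to the adult, 1 of 16 tested was higher and 8 lower in WT, and 0 of 17 higher and 8 lower in Plk3-KO retinas, with median differences of −0.68 and −0.93 beside −0.20 over all probe sets tested. Among these, Lhx9, a LIM-homeodomain factor of amacrine subtypes, fell by 2.23 in WT and 2.57 in Plk3-KO retinas. Tfap2d, the AP-2 paralogue, fell by 1.97 and 2.27. Sox2, which progenitors, Mueller glia and cholinergic amacrine cells express, fell by 2.0 and 2.63, and Pax6, kept by progenitors and amacrine cells, fell by 0.70 and 1.0. Meis2 fell by 0.57 and 0.67 and Nr4a2, a nuclear receptor, by 0.87 and 1.37. In WT alone, Rorb fell by 1.5, Dll4, a Notch ligand downstream of Foxn4, by 2.27, and Neurod2 rose by 0.77. In Plk3-KO retinas alone, Neurod4 fell by 1.10 and Sall3 by 2.20, and none of the factors was called as different between genotypes in its change. Over single steps, Isl1, a LIM-homeodomain factor of cholinergic amacrine, bipolar and ganglion cells, rose from P0 to P7 by 1.07 in both genotypes and fell from P7 to the adult by 1.07 in Plk3-KO retinas. Neurod1 rose from P0 to P7 by 0.70 in Plk3-KO retinas.

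Genes of mature amacrine and horizontal cell function moved in the other direction. From P0 to the adult, 11 of 15 amacrine cell transmitter and marker genes tested were higher in WT and 11 of 15 in Plk3-KO retinas, and 0 were lower, with medians of 1.67 and 1.57. Beside this and the counts below, 21.3% of all probe sets tested were higher and 26.9% lower in WT. In Plk3-KO retinas these shares were 20.1% and 25.2%. Gad1, which makes GABA, rose by 2.77 in WT and 2.20 in Plk3-KO retinas, and Calb2, the calcium buffer calretinin, by 1.67 and 1.70. Tac1, a neuropeptide precursor, rose by 1.37 in WT and differed by 0.37 in Plk3-KO retinas without a call. Of 4 horizontal cell markers tested, 3 were higher in each genotype, with medians of 2.35 and 1.77. Calb1 rose by 5.23 in both, Septin4 by 2.20 and 1.97, and the vesicular transporter Slc32a1, which is in both lists, by 2.50 and 1.57, while the fourth is Lhx1 itself. Retinal progenitor genes were lower in 10 of 11 cases in WT and 11 of 11 in Plk3-KO retinas, with medians of −2.87 and −3.10 and with Ccnd1 down by 4.67 and 4.80, Lhx2 by 2.0 and 2.87 and Six3 by 0.90 and 1.10. Rod markers were higher in 8 of 8 cases in each genotype, with medians of 5.6 and 5.73, and Nrl, Sag and Pdc rose by 3.07, 4.27 and 2.47 in WT. Of other cell types, 9 of 10 bipolar cell markers were higher in WT and 8 of 10 in Plk3-KO retinas, 5 and 6 of 9 ganglion cell markers were higher and 2 lower in each, and 6 of 9 Mueller glia markers were higher in each, with 1 lower in WT and 2 in Plk3-KO retinas. Of tissue outside the retina, 0 lens genes were called, of 7 tested in WT and 8 in Plk3-KO retinas, 6 and 4 of 7 pigment epithelium genes were higher, and of surface epithelium genes 2 of 3 were higher and 1 lower in WT and 1 higher and 2 lower in Plk3-KO retinas. Of endothelium genes, 2 of 5 were higher and 1 lower in WT, and 2 of 4 lower in Plk3-KO retinas. Between genotypes at one age, 0 genes of these lists were called.

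By the root mean square difference of the centred profile over the 6 group means, among 12108 genes, the genes most like Foxn4 were Ccnb2 (0.144), Ccnd1 (0.176) and Mcm3 (0.189), and those most like Ptf1a were Brip1 (0.689), Fndc3c1 (0.716) and Dlgap5 (0.734). Those most like Onecut2 were Prelid2 (0.138), Nasp (0.154) and Zfp934 (0.163), and those most like Tfap2a were Bcl9 (0.043), Nr4a2 (0.0448) and Tubgcp3 (0.0487). For Tfap2b, Akap8l, Sidt2 and Ctnnb1 lay at 0.0255 to 0.0385, and for Lhx1, Bok, Mcat and Gak at 0.0255 to 0.0416. For Nhlh2 they were Cercam, Rnf122 and Prkag2 (0.0471 to 0.0737), for Tfap2c Parp9, Tmed9 and Sart1 (0.0737 to 0.0936), for Prox1 Mettl14, Zfp944 and Psmd7 (0.0875 to 0.123) and for Onecut1 Ccdc122, Bcl2 and Slc35g1 (0.175 to 0.205). A profile that hardly changes has many close neighbours, so the small distances of Lhx1 and Tfap2b do not mark these genes out.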

How the data were processed

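Retinal RNA was measured on Affymetrix mouse genome arrays. The values are the authors' deposited log2 MAS5 signals, given with 1 decimal, and no normalization was added, and arrays of E16.5 retinas are not analysed here. The members and lists were chosen with earlier results of these data known. After 64 control probe sets were left out, 45037 remained, of which 34945 carry 1 gene symbol in GEO's platform annotation, 932 several and 9160 none. R 4.3.3 with limma 3.58.1 was used, with 1 mean for each of 6 groups (12 residual degrees of freedom) and variances moderated along the mean (4.07 prior degrees of freedom). Probe sets with a mean above 7 in a group compared were tested, with Benjamini-Hochberg adjustment within each comparison at 0.05. The fit was tested on simulated data. The methods' t-test, other scalings, filters, weights and left-out arrays were tried as alternatives. The genes named are all members, 3 genes most like each, the 3 with the highest mean of lists described and each related factor called. The labels name no shared litters, and arrays of equal number did not deviate together throughout, so numbers were not treated as pairs. The number of arrays limits the precision.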

Additional observations from a re-analysis of the deposited data

How the results depend on the processing

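Under each alternative, between 0 and 24 member results gained a call and 0 to 5 lost it, and between 0 and 46 differences that were called under neither setting changed sign. No called difference changed sign, and 1 difference that was not called with all arrays was called in the opposite direction, Prox1 on 1437894_at from P7 to the adult in WT, at −1.10 without the 4 arrays that stand apart. That omission was chosen with the values known. The falls of Ptf1a and Foxn4 from P0 to P7 and from P0 to the adult, and those of all 3 Onecut2 probe sets from P0 to the adult, were called under every alternative that tested them. Shifting each array to the same median moved all P0 to adult differences by 0.37 in WT and 0.27 in Plk3-KO retinas and P0 to P7 differences by 0.23, and left 6 and 12 member probe sets lower from P0 to the adult. The share of calls that were higher moved with it, from 52.9% to 67.0% for P0 to P7 in WT, from 50.2% to 66.8% in Plk3-KO retinas, from 44.2% to 59.6% for P0 to adult in WT and from 44.4% to 56.8% in Plk3-KO retinas. Quantile normalization left 8 member probe sets in WT and 12 in Plk3-KO retinas lower from P0 to the adult, as with the deposited values. From P0 to P7 it called 4 and 7 as lower, against 2 and 6 with the deposited values.

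Of all probe sets, arrayWeights, whose estimate did not converge, called 3 between genotypes at P0, 24 at P7, 1452 in the adult and 82 over the ages, 228 and 209 for the difference between genotypes of the change from P7 and from P0 to the adult, and for changes with age 10388 (P0 to P7, WT), 12277 (P7 to adult, WT), 9657 (P0 to P7, Plk3-KO) and 9965 (P7 to adult, Plk3-KO). Without the 4 arrays that stand apart the counts were 387 between genotypes in the adult, 16 over the ages, 10 and 24 for those differences of the change, and 7417, 9466 and 7863 for P0 to P7 in WT and P7 to adult in WT and Plk3-KO retinas. The P7 to adult counts were 2616 in WT and 2267 in Plk3-KO retinas with equal medians, and 2150 and 1916 with only the arrays compared. With values under 5 set to 5, 1 probe set was called between genotypes in the adult and 2 over the ages. Leaving out 1 array gave 0 to 1 at P0, 0 to 1 at P7, 0 to 105 in the adult (105 when adult WT array 3 was left out) and 0 to 3 over the ages, 0 to 1 and 0 to 3 for the differences of the change from P7 and from P0 to the adult, and 2386 to 6338 for P7 to adult in WT. The causes were not tested. With replicate number as a block, 0 probe sets were called between genotypes at any age or over the ages and no member changed its call, and the block could not be fitted for changes with age. Same-numbered arrays correlated in their deviations at 0.49, 0.10 and 0.54 in the adult, 0.38, −0.49 and −0.61 at P7 and 0.19, −0.06 and 0.10 at P0. The methods' t-test after adjustment called 0 probe sets at each age. With 3 arrays a group, differences smaller than the intervals given could not be detected.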
